A study of Mus musculus with 18 samples.

Results

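Axl, Mertk, Tyro3, Gas6, Pros1, Mfge8, Timd4 and Stab1 are described here, 8 of the 49585 genes counted in sorted mouse leukocytes from inflamed joints, inflamed skin and their draining lymph nodes (LNs). They were chosen by name as the TAM receptors, their ligands and other proteins by which phagocytes bind dying cells, and all 8 were counted in all 18 libraries. Each passed the filter on low counts in both model fits.

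The cells came from Kaede mice, whose photoconvertible protein turns from green to red when lit, so that cells present in a tissue at the time of exposure can be found again elsewhere. All mice of the inflamed groups had received Th1-polarised OT-II CD4+ T cells, immunisation with ovalbumin in CFA and a challenge with heat-aggregated ovalbumin (HAO) in the footpad or the ear pinna, called skin here. Photoconversion followed on day 3 and the sort of viable CD45+ Kaede Red+ cells 24 hours later. Joint nonmigrated and skin nonmigrated cells were still in the inflamed tissue, and joint migrated and skin migrated cells had reached the draining LN, with 3 pools of mice in each of these 4 groups. A further 3 libraries each came from the joint-draining and the skin-draining LN at steady state. Their source labels describe CD45+ leukocytes migrated from joint or ear to the LN, without the word inflamed. They are called steady-state LN cells here, and the word migrated is kept for the inflamed groups. Sample titles name PBS and the letters KG for the joint-draining steady-state samples and the word Naive for the skin-draining ones. KG is not explained there, and 1 sort protocol is given for all samples, so the steady-state groups may differ in more than the site. By the study's methods the mice were young adults matched for age and sex, and each pool held males and females.

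TAM receptors are receptor tyrosine kinases named after Tyro3, Axl and Mertk. Their ligands Gas6 and protein S, the product of Pros1, are vitamin K dependent proteins that bind phosphatidylserine on the surface of a dying cell with one end and the receptor with the other, and signalling then supports engulfment and damps innate cytokine responses. Mertk is known from resident and tissue-repairing macrophages, Axl from macrophages and dendritic cells (DCs) under inflammatory stimuli, and Gas6, Axl and Mertk have all been studied in arthritic synovium. Mfge8 bridges phosphatidylserine to integrins, Timd4 (TIM-4) tethers phosphatidylserine directly, and Stab1 (stabilin-1) is a scavenger receptor of macrophages and sinusoidal endothelium that also takes up dying cells.

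The genes lie on 6 mouse chromosomes of GRCm38, the assembly also called mm10. Axl spans chr7:25757273-25788705, Mertk chr2:128698956-128802894, Tyro3 chr2:119797733-119818104, Gas6 chr8:13465374-13494490 and Pros1 chr16:62854307-62929346. Mfge8 lies at chr7:79133768-79149060, Timd4 at chr11:46810800-46844332 and Stab1 at chr14:31139013-31168641. Exons of Gas6 and Stab1 overlap exons of a gene on the other strand, Tmem255b over 34 bases (1.3% of the exon bases of Gas6) and Nt5dc2 over 112 bases (1.1% of those of Stab1), and whether the libraries kept strand is not stated. Over all 18 libraries, Tmem255b had 17 counts and Nt5dc2 5811.

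Promoters are shown for the 3 TAM receptors, which took different courses between tissue and LN, and for Gas6 and Stab1, which had the steepest differences. Each line holds the 250 bases before the RefSeq transcription start (GRCm38.p6), in the direction of transcription. For Tyro3, that start and the window before it lie inside the gene span given above. Capitals mark the GC box GGGCGG and the PU.1 core GAGGAA, on either strand, so that CCGCCC and TTCCTC are the same motifs on the other strand.
Axl, chr7:25788734-25788983, minus strand: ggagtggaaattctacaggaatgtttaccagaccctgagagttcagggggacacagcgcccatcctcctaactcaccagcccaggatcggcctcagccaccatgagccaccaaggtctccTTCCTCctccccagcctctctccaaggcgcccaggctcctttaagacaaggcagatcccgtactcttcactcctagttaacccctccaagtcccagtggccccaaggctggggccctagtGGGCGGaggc
Mertk, chr2:128698665-128698914, plus strand: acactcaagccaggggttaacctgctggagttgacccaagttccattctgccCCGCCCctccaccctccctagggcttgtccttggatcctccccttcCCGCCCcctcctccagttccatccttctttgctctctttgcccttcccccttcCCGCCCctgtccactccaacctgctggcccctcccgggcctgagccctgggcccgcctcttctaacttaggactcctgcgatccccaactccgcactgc
Tyro3, chr2:119799264-119799513, plus strand: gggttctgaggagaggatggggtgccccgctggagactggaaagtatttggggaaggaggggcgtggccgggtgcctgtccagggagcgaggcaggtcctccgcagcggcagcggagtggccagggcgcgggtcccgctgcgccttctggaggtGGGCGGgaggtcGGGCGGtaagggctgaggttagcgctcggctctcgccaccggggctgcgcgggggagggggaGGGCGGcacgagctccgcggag
Gas6, chr8:13494536-13494785, minus strand: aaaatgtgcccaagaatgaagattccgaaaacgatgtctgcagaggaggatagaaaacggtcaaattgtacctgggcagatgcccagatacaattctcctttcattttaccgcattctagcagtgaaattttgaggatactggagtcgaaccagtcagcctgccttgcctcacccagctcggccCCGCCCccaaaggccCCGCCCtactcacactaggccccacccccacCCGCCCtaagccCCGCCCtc
Stab1, chr14:31168642-31168891, minus strand: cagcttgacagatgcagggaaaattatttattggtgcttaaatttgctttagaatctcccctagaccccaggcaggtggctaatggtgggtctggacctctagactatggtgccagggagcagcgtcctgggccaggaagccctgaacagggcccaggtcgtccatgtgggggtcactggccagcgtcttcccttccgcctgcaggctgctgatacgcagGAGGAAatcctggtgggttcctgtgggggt

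The GC box, the motif of SP and KLF factors, occurred 1 time in the Axl promoter, 3 times in Mertk, 3 times in Tyro3, 4 times in Gas6, 5 times in Pros1 and 4 times in Mfge8, and not in Timd4 or Stab1. It was found in 32.7% of the 32851 promoters searched. The PU.1 core, bound by a factor central to myeloid cells, stood once each in Axl, Mfge8 and Stab1, against 23.3% of all promoters. None of the 8 held the AP-1 motif TGANTCA (6.75% of promoters), the E-box CACGTG of the MITF and TFE family (6.02%) or the LXR element, a direct repeat with a spacer (0.0152%). A further motif searched, TGCTGAC (3.81% of promoters), stood once, in Timd4. GC content was highest in Tyro3, at 73.2%, where the median of all promoters was 52.4%. These matches describe letters in the window and were not tested against the expression values.

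The libraries held 35554698 to 43814403 counts assigned to genes in the 6 inflamed joint samples, 19239531 to 22528895 in the 6 inflamed skin samples and 28577566 to 42938378 at steady state. Reads outside annotated genes made up 0.293% to 0.562% of the counts in the inflamed joint libraries and 0.092% to 0.135% in the inflamed skin libraries, so tissue and a difference in sequencing or handling between the sites cannot be told apart. Among skin nonmigrated libraries, replicate 3 stood apart. Its summed level of 6 fibroblast markers was 255 CPM (counts scaled to a common library size, with TMM factors) against 59.97 and 62.41 in the others. That of Siglec1 and Cd5l was 131 against 25.8 and 17.6, nearly all of it Siglec1, as Cd5l reached at most 0.676 CPM in this group. Macrophage markers were also highest in it, at 5211 CPM against 3044 and 1916. Keratinocyte (23.3 against 135 and 272) and T cell markers (131 against 362 and 378) were lowest. Results that rest on this library are given with and without it.

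Levels are first given per kilobase of exon (CPM per kb), which allows genes to be compared. Joint nonmigrated cells held most Stab1 mRNA (51.2 ± 8.57, SD, n = 3), followed by Axl (42.6 ± 3.04), Gas6 (29.5 ± 11.1), Mertk (25.2 ± 2.06) and Pros1 (19.1 ± 3.19). Mfge8 (4.88 ± 0.856), Timd4 (1.92 ± 0.852) and Tyro3 (0.121 ± 0.0329) came last there. In joint migrated cells the order was another one. Mfge8 led with 9.88 ± 2.13 CPM per kb, then came Axl (5.56 ± 0.368), Timd4 (2.36 ± 0.464) and Tyro3 (1.09 ± 0.117), and Mertk (0.319 ± 0.175) and Gas6 (0.219 ± 0.151) were last. Skin migrated cells had the same order of the 8 genes as joint migrated cells, from Mfge8 (11.4 ± 0.716) and Axl (7.16 ± 0.665) down to Gas6 (0.272 ± 0.19). All further levels are in CPM.

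**Figure D1:**
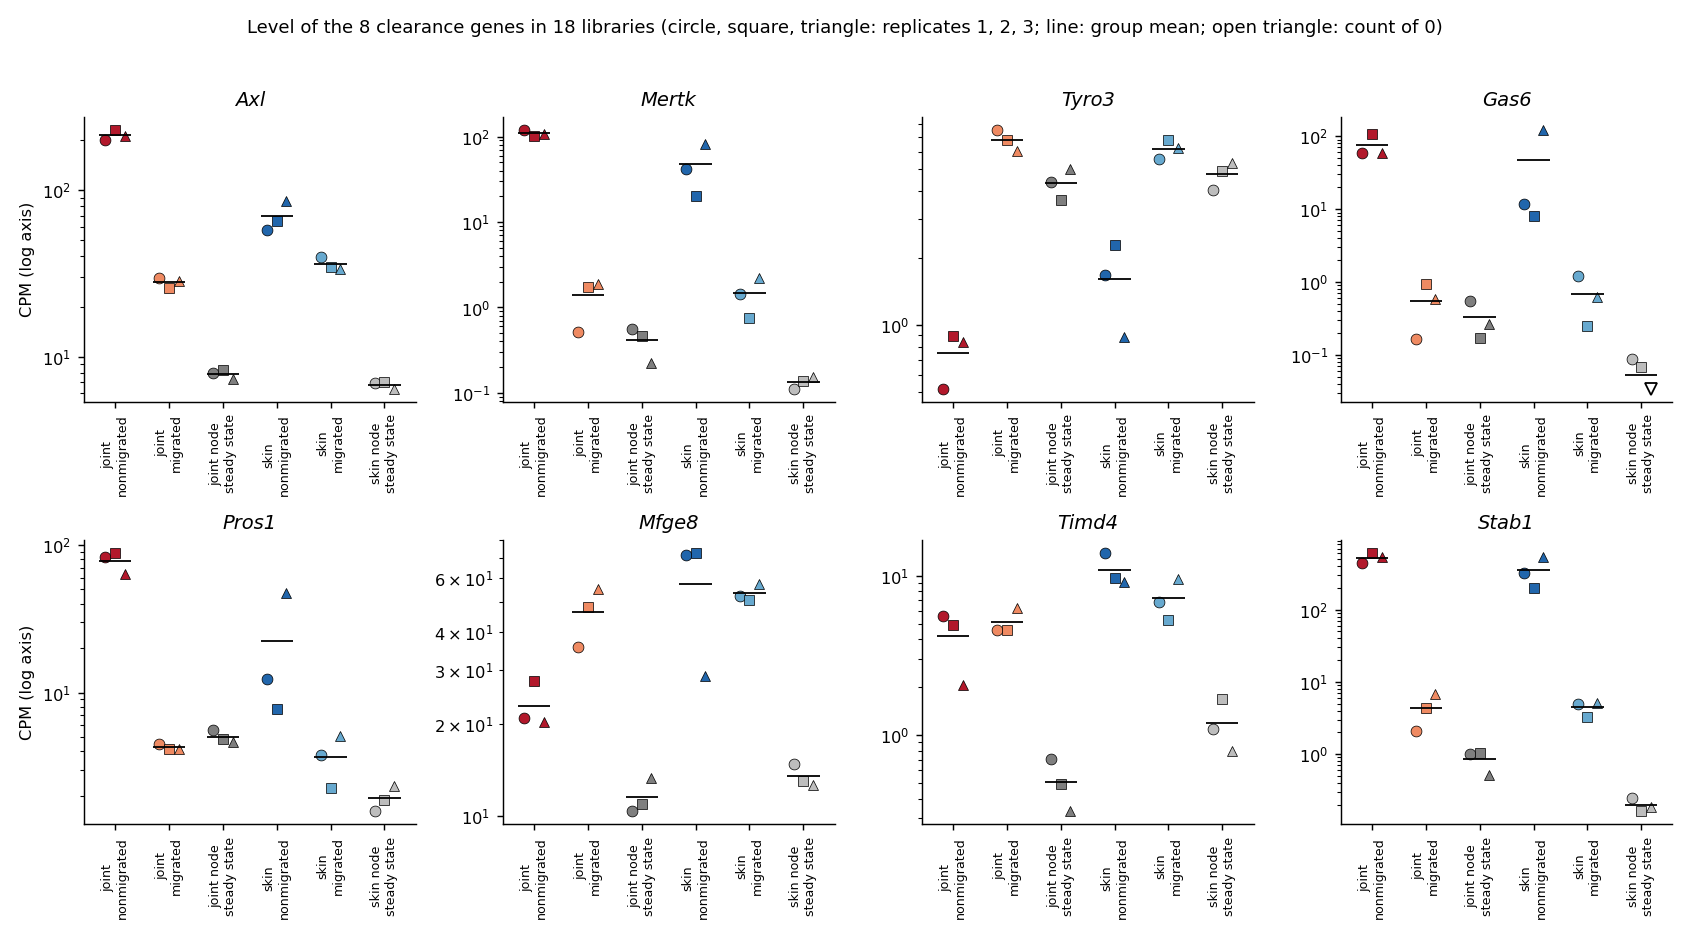
CPM of each gene (log axis) in the 18 libraries, by group; symbols are replicates 1 to 3, the line is the group mean and the open triangle a count of 0. Mertk, Gas6, Pros1 and Stab1 are high in both nonmigrated groups and low in all LN groups, while Tyro3 shows the opposite order.

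The first comparison asked which clearance genes separated cells that stayed in the inflamed joint from cells that left it. Axl, Mertk, Gas6, Pros1 and Stab1 were lower in joint migrated cells, by 7.64-fold (Axl) to 136-fold (Gas6), while Tyro3 was 8.998-fold and Mfge8 2.03-fold higher. Genes count as called where edgeR's quasi-likelihood test gave an adjusted p (Benjamini-Hochberg) under 0.05 and the log2 fold change was over 1 in size. By this rule 7 of the 8 genes were called, 2 higher and 5 lower, and of all 16777 genes tested 34.3% were, 16.0% higher and 18.4% lower. The libraries of the groups did not overlap for 7 of the 8 genes and for 65.5% of all genes. The median log2 fold change of the 8 genes was -3.56, and that of all genes tested was 0.02. In bulk libraries, fewer cells of a type and less RNA per cell cannot be told apart.

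Among the receptors, Mertk stood at 119, 102 and 107 CPM in the joint nonmigrated libraries and at 0.513, 1.73 and 1.91 CPM in the joint migrated ones. The groups were far apart, with a log2 fold change of -6.30 (SE 0.606, adjusted p = 6.62e-06). Axl had 199.7, 230.2 and 213 CPM in nonmigrated cells and 29.6, 26.0 and 28.4 CPM after migration (log2 fold change -2.93, SE 0.15, adjusted p = 1.47e-07). Axl thus differed far less than Mertk between the same libraries. Tyro3, which is best known from neurons but is also found in some T cells and DCs, had 0.52, 0.897 and 0.842 CPM in nonmigrated and 7.49, 6.77 and 6.04 CPM in migrated cells. It rose by 3.17 on the log2 scale (SE 0.332, adjusted p = 1.24e-05), from counts of 19 to 28 per nonmigrated library. T cell markers rose between the same libraries, from 53.2 to 111 CPM to 474 to 734 CPM in sum, with 3 of 3 called higher, and their part in the Tyro3 result was not tested.

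Both TAM ligands were low in joint migrated cells. Gas6 was at 58.97, 108 and 58.9 CPM in nonmigrated cells and at 0.164, 0.934 and 0.579 CPM in migrated cells, where the libraries held 8, 40 and 27 counts. Its log2 fold change was -7.08 (SE 1.11, adjusted p = 0.000233), the largest in size and the least precise of the 8. Pros1 ran at 82.5, 88.5 and 63.5 CPM in nonmigrated and 4.50, 4.16 and 4.18 CPM in migrated cells (log2 fold change -4.19, SE 0.575, adjusted p = 8.92e-05). Per kb, Gas6 stood at 1.15 to 1.96 times Pros1 in the joint nonmigrated libraries and at 0.0586 to 0.361 times in the joint migrated ones, so the more abundant ligand mRNA was Gas6 in the tissue and Pros1 in the LN.

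Stab1 fell from 438, 614 and 529 CPM to 2.09, 4.32 and 6.79 CPM (log2 fold change -6.90, SE 0.499, adjusted p = 1.02e-06). Mfge8 went the other way, with 20.95, 27.5 and 20.3 CPM in nonmigrated and 35.6, 48.1 and 55.4 CPM in migrated cells. Its groups did not overlap, but the log2 fold change of 1.02 (SE 0.296, adjusted p = 0.012) was just past the fold limit and fell to between 0.90 and 0.99 when joint nonmigrated replicate 1 (0.95) or 3 (0.93) or joint migrated replicate 2 (0.99) or 3 (0.90) was left out, which ended the call. Timd4 overlapped between the groups, at 5.55, 4.92 and 2.07 CPM against 4.56, 4.55 and 6.30 CPM (log2 fold change 0.30, SE 0.348, adjusted p = 0.489).

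Cell type markers moved with these genes. The sum of 5 macrophage markers (Adgre1, Csf1r, Fcgr1, Cd68, Mrc1) was 4152 to 5633 CPM in joint nonmigrated and 44.1 to 103 CPM in joint migrated cells, with all 5 called lower. That of 5 DC markers (Flt3, Zbtb46, Itgax, Xcr1, Ccr7) was 212 to 330 CPM and 944 to 2202 CPM, with 3 called higher and 1 lower. Fibroblast markers, of cells the CD45+ gate should leave out, summed to 129 to 362 CPM in nonmigrated and 1.05 to 2.17 CPM in migrated cells, while the leukocyte gene Ptprc ran from 1155 to 1681 CPM over both groups. Neutrophil markers fell from 4892 to 15040 CPM to 31.0 to 79.6 CPM, with 5 of 5 called lower, and B cell markers rose from 55.7 to 146 CPM to 406 to 548 CPM, with 3 of 3 called higher. The part of these shifts in the results was not tested. Relative to the macrophage marker sum, Mertk made up 1.81% to 2.57% in joint nonmigrated and 1.16% to 1.93% in joint migrated cells, while Axl stood at 3.83% to 5.13% and 27.7% to 67.1%. Stab1 (8.39% to 12.7% against 4.74% to 6.62%) and Gas6 (1.13% to 1.92% against 0.372% to 1.04%) were somewhat lower on this scale in migrated cells, and Tyro3 was 0.00996% to 0.0203% against 5.89% to 17.0%. Pros1 was higher on it in migrated cells, at 1.53% to 1.58% against 4.07% to 10.2%. So were Mfge8 (0.402% to 0.489% against 53.7% to 80.65%) and Timd4 (0.05% to 0.106% against 5.085% to 10.3%).

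**Figure D2:**
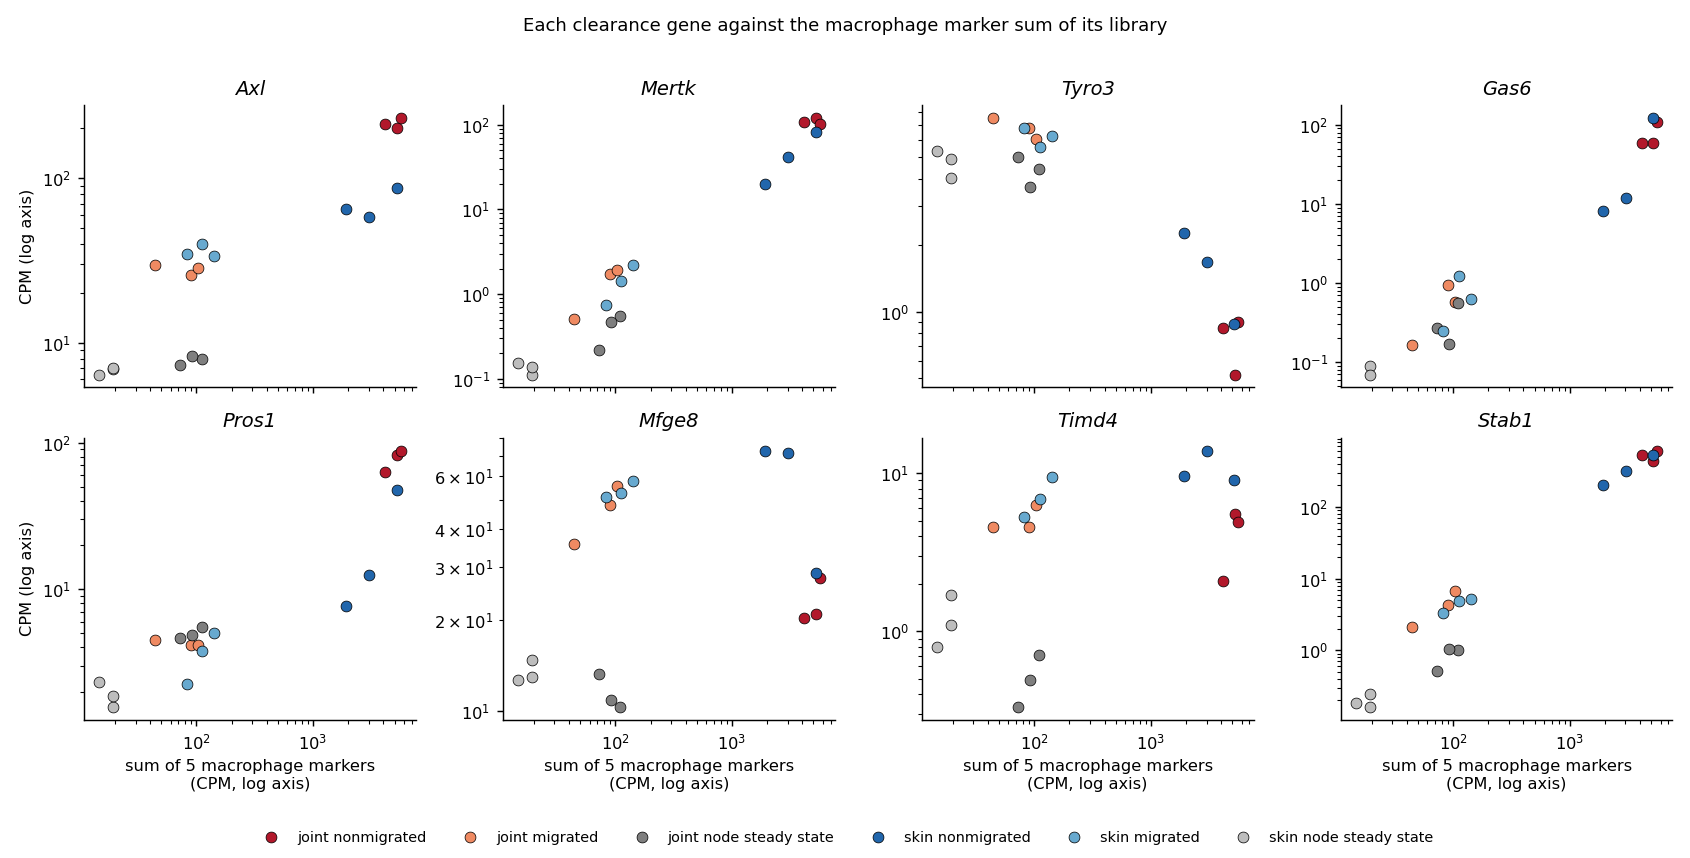
CPM of each gene (log axis) against the sum of 5 macrophage markers in the same library (CPM, log axis), coloured by group; the Gas6 library with a count of 0 is left out. Mertk, Gas6 and Stab1 are high where the marker sum is high, Axl stands higher relative to that sum in migrated than in nonmigrated cells, and Tyro3 is lowest where the sum is highest.

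The same contrast at the skin gave 5 called genes of the 8, 1 higher and 4 lower, against 35.4% of all genes tested (15.7% higher, 19.7% lower). Library ranges did not overlap for 6 of the 8, against 61.6% of all genes. Mertk, Gas6, Pros1 and Stab1 were lower in skin migrated cells and Tyro3 was higher. Mertk had 41.3, 20.1 and 82.3 CPM in skin nonmigrated and 1.44, 0.749 and 2.22 CPM in skin migrated cells (log2 fold change -5.01, SE 0.598, adjusted p = 3.22e-05). Stab1 had 321, 201 and 531 CPM against 4.93, 3.30 and 5.14 CPM (log2 fold change -6.30, SE 0.491, adjusted p = 1.56e-06). For both genes, every nonmigrated library was above every migrated one, with a 4.09-fold (Mertk) and 2.65-fold (Stab1) range among the nonmigrated libraries. Without skin nonmigrated replicate 3, which was the highest for both, the log2 fold changes were -4.37 (Mertk, adjusted p = 2.64e-05) and -5.86 (Stab1, adjusted p = 1.18e-06).

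Gas6 was at 11.9, 8.18 and 121 CPM in skin nonmigrated cells, the high value being that of replicate 3, and at 1.21, 0.25 and 0.62 CPM in skin migrated cells (log2 fold change -6.07, SE 1.11, adjusted p = 0.000701). Without replicate 3 the log2 fold change was -3.83 (adjusted p = 0.000207). Pros1 followed the same libraries, with 12.4, 7.71 and 47.3 CPM against 3.77, 2.25 and 5.05 CPM, and its log2 fold change of -2.60 (SE 0.56, adjusted p = 0.00198) became -1.44 (adjusted p = 0.00156) without replicate 3. Both calls held without that library, at smaller folds. Tyro3 had 1.68, 2.28 and 0.883 CPM in nonmigrated and 5.54, 6.74 and 6.25 CPM in migrated cells (log2 fold change 1.93, SE 0.322, adjusted p = 0.000356).

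Axl differed less in skin than in joint. It stood at 57.6, 65.0 and 86.5 CPM in skin nonmigrated and 39.8, 34.7 and 33.5 CPM in skin migrated cells, groups that did not overlap, with a log2 fold change of -0.96 (SE 0.142, adjusted p = 0.000158) that was under the fold limit. Leaving out skin nonmigrated replicate 1 (-1.07) or skin migrated replicate 1 (-1.03) took it past that limit. Mfge8 had 71.4, 72.7 and 28.7 CPM in nonmigrated and 52.6, 51.0 and 57.5 CPM in migrated cells (log2 fold change -0.11, SE 0.294, adjusted p = 0.778), and Timd4 had 13.9, 9.64 and 9.09 CPM against 6.84, 5.29 and 9.53 CPM (log2 fold change -0.59, SE 0.349, adjusted p = 0.165). Macrophage markers summed to 1916 to 5211 CPM in skin nonmigrated and 82.3 to 141 CPM in skin migrated cells, with all 5 called lower. Neutrophil (5 of 5), fibroblast (6 of 6), platelet (3 of 3) and endothelial markers (4 of 4) were called lower too, as were the 3 keratinocyte markers, of skin cells outside the CD45+ gate, from 23.3 to 272 CPM to 0.709 to 1.30 CPM. B cell markers (3 of 3), T cell markers (2 of 3) and DC markers (3 of 5, with the other 2 lower) were called higher. The part of these shifts in the results was not tested. Relative to the macrophage sum, Mertk made up 1.05% to 1.58% in nonmigrated and 0.910% to 1.57% in migrated skin cells. Stab1 was lower on this scale in migrated cells (10.2% to 10.5% against 3.64% to 4.40%), and Gas6 overlapped (0.390% to 2.325% against 0.303% to 1.08%). Axl (1.66% to 3.395% against 23.7% to 42.2%) and Pros1 (0.403% to 0.9075% against 2.73% to 3.575%) were higher. So were Tyro3 (0.017% to 0.119% against 4.42% to 8.19%), Mfge8 (0.5515% to 3.795% against 40.7% to 62.0%) and Timd4 (0.1745% to 0.503% against 6.10% to 6.74%).

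**Figure D3:**
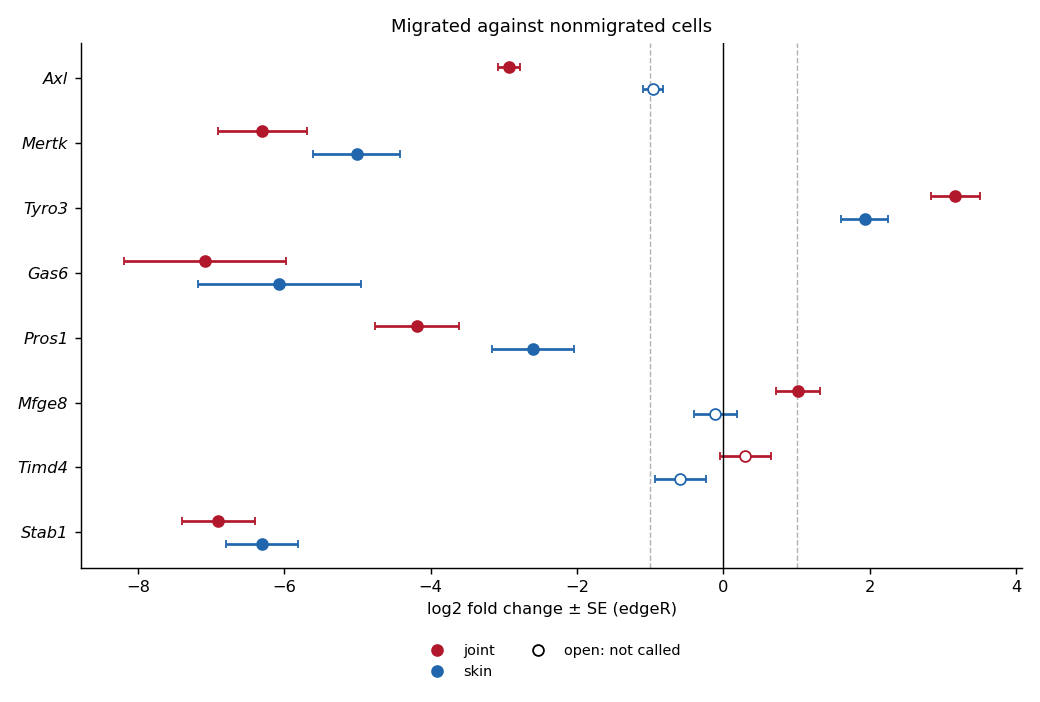
Log2 fold change ± SE of migrated against nonmigrated cells for the joint (red) and the skin (blue); filled points were called and the dashed lines mark a log2 fold change of 1 in size. Axl (-2.93 in joint, -0.96 in skin) is the gene whose intervals lie farthest apart relative to their width.

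Whether migration differed by site was tested as an interaction, the log2 fold change in joint minus that in skin. Axl was the 1 gene of the 8 called, at -1.98 (SE 0.20, adjusted p = 0.000667), and 6.13% of all genes tested were called, 3.96% higher and 2.17% lower. Its interaction stayed between -2.16 and -1.86 and called under all 19 alternatives run. Between joint and skin, Axl had a log2 fold change of 1.62 in nonmigrated and -0.36 in migrated cells. Markers called higher in this interaction were of DCs (3 of 5), T cells (2 of 3), endothelium (2 of 4), Langerhans cells (1 of 2) and platelets (1 of 3). B cell markers (2 of 3) were called lower, and none of the 5 macrophage markers was called (median -0.77). Their part in the Axl value was not tested. Tyro3 (1.24, SE 0.448, adjusted p = 0.11), Mfge8 (1.12, SE 0.416, adjusted p = 0.116) and Pros1 (-1.58, SE 0.749, adjusted p = 0.204) missed the threshold, as did Mertk (-1.29, adjusted p = 0.309), Gas6 (-1.02, adjusted p = 0.7), Stab1 (-0.61, adjusted p = 0.533) and Timd4 (0.89, adjusted p = 0.272). Without skin nonmigrated replicate 3, 5 genes were called: Axl (-2.16), Tyro3 (1.53, adjusted p = 0.012), Gas6 (-3.25, adjusted p = 0.0164), Pros1 (-2.75, adjusted p = 0.00106) and Mfge8 (1.44, adjusted p = 0.00232), and the count over all genes rose from 1029 to 2610.

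Cells that had stayed in the tissue were compared between joint and skin. Axl (log2 fold change 1.62, SE 0.143, adjusted p = 5.11e-05) and Pros1 (1.80, SE 0.519, adjusted p = 0.0249) were higher in joint nonmigrated cells. Mfge8 (-1.33, SE 0.299, adjusted p = 0.00761), Timd4 (-1.38, SE 0.354, adjusted p = 0.0144) and Tyro3 (-1.10, SE 0.338, adjusted p = 0.032) were lower there, so 5 of 8 genes were called, 2 higher and 3 lower, against 14.3% of all genes tested (5.45% higher, 8.86% lower). Library ranges did not overlap for 5 of the 8 (Axl, Mertk, Pros1, Mfge8, Timd4), against 37.9% of all genes. Of these, Axl and Mfge8 were called in the joint-skin comparison whichever single library was left out, while Tyro3 overlapped between the groups and lost its call without any of 5 libraries (adjusted p 0.0518 to 0.148).

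Other values of this comparison depended on single libraries, skin nonmigrated replicate 3 among them. Mertk missed the threshold (log2 fold change 1.19, SE 0.476, adjusted p = 0.0841) although its groups did not overlap, and was called without that library (1.83, adjusted p = 0.00713), with no filter on low counts (1.24, adjusted p = 0.0378) and in a fit of all 18 libraries (1.19, adjusted p = 0.0384). Gas6 went from 0.68 (SE 0.816, adjusted p = 0.565) to 2.91 (adjusted p = 0.00121), and Stab1 from 0.59 (SE 0.383, adjusted p = 0.274) to 1.01 (adjusted p = 0.052). Pros1 was at 2.96 (adjusted p = 5.66e-05) without replicate 3, and it lost its call without joint nonmigrated replicate 1 (1.76, adjusted p = 0.0575) or 2 (1.70, adjusted p = 0.069) or without skin nonmigrated replicate 1 (1.5, adjusted p = 0.0968) or 2 (1.38, adjusted p = 0.0585). Timd4 lost its call without skin nonmigrated replicate 1 (-1.16, adjusted p = 0.0639). Without replicate 3, 7 genes were called and 3720 genes in all, against 2400 with it. None of the 5 macrophage markers and none of the 6 fibroblast markers was called between the nonmigrated groups. Macrophage markers summed to 4152 to 5633 CPM in joint and 1916 to 5211 CPM in skin. Their log2 fold changes were 1.62 for Adgre1 (adjusted p = 0.0846, groups that did not overlap), 0.9 for Csf1r (adjusted p = 0.0896), 0.37 for Mrc1, -0.12 for Cd68 and -0.23 for Fcgr1. Of the DC markers, 4 of 5 were called lower in joint. T cell markers (3 of 3, median log2 fold change -1.85) were lower in joint as Tyro3 was, keratinocyte markers (3 of 3, median -8.84) were lower as well, and neutrophil (4 of 5) and B cell markers (3 of 3) were higher. Their part in the results was not tested.

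In cells that had left, no member was called between joint and skin, where 1.14% of all genes tested were called. Axl, at 26.0 to 29.6 CPM in joint migrated and 33.5 to 39.8 CPM in skin migrated cells, came nearest, as the 1 gene whose groups did not overlap (28.2% of all genes), a log2 fold change of -0.36 (SE 0.141) and an unadjusted p of 0.0255 (adjusted p = 0.227). It was the only 1 of the 8 with an unadjusted p under 0.05 in edgeR, as were 2770 of all 16777 genes, and DESeq2 also called 0 of the 8. The other log2 fold changes were -0.49 (Timd4, SE 0.348), -0.21 (Mfge8, SE 0.293), -0.11 (Mertk, SE 0.603), -0.02 (Stab1, SE 0.423), 0.13 (Tyro3, SE 0.295) and 0.21 (Pros1, SE 0.547), with library ranges that overlapped. Gas6 was at -0.34 with an SE of 1.24, so a sizeable difference in that gene could go undetected with pools this far apart. Its libraries held 8, 40 and 27 counts in joint migrated and 26, 5 and 14 in skin migrated cells.

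The TAM receptors were also expressed as shares of their summed level per kb, which no scaling between libraries can change. In joint nonmigrated cells, Axl made up 62.7% ± 3.48 (SD, n = 3), Mertk 37.1% ± 3.53 and Tyro3 0.179% ± 0.0468. Joint migrated cells held 79.7% ± 2.02 Axl, 4.62% ± 2.58 Mertk and 15.7% ± 1.62 Tyro3. By mean share, the receptor mRNA next to Axl was thus Mertk in joint nonmigrated and Tyro3 in joint migrated cells. The same held in skin. Skin nonmigrated cells held 57.8% ± 12.8 Axl, 41.0% ± 13.6 Mertk and 1.24% ± 0.83 Tyro3, and skin migrated cells 84.2% ± 2.59, 4.00% ± 2.09 and 11.8% ± 1.83. Macrophage and T cell markers also differed between these groups, as given above, and their part in the shares was not tested. At steady state, Tyro3 reached 29.8% ± 4.82 in joint-draining and 35.8% ± 3.96 in skin-draining LNs, and Mertk 4.03% ± 1.62 and 1.44% ± 0.18. The 3 receptors summed to 67.9 ± 1.29 CPM per kb in joint nonmigrated, 25.2 ± 9.79 in skin nonmigrated, 6.97 ± 0.289 in joint migrated and 8.49 ± 0.561 in skin migrated cells. With 3 libraries against 3, an exact permutation test of such a share could not go below 0.1, so none was run.

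**Figure D4:**
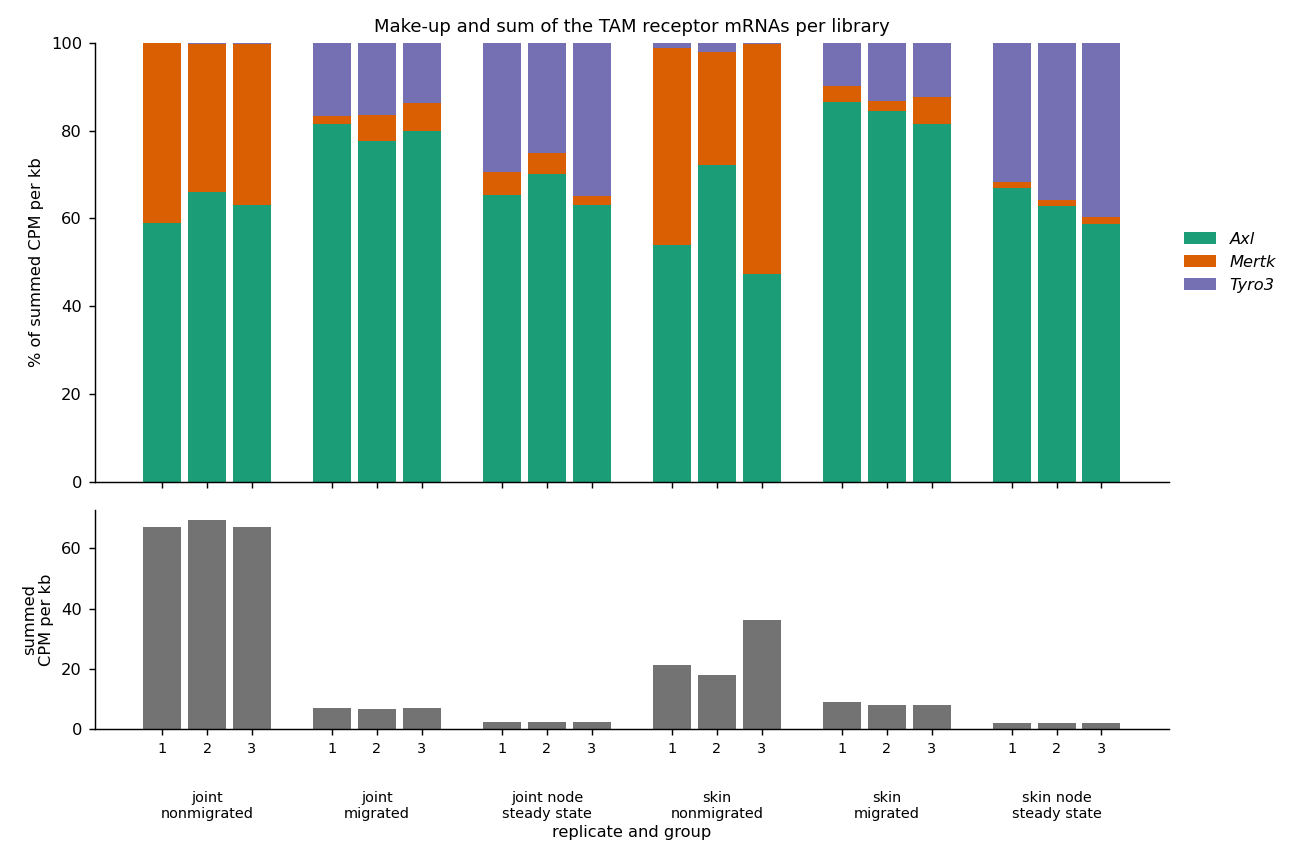
Share of Axl, Mertk and Tyro3 in their summed CPM per kb (upper panel, %) and that sum (lower panel) in each library. Mertk fills 25.9% to 52.3% of the bar in the tissues and at most 6.24% in the LNs, where Tyro3 fills 9.78% to 39.7%.

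Cells that reached the LN in inflammation were then set against steady-state LN cells, whose labels also name migration to the LN. At the joint, 5 of 8 genes were called and all 5 were higher in migrated cells, against 24.2% of all genes tested (16.9% higher, 7.31% lower). Timd4 rose from 0.712, 0.491 and 0.333 CPM to 4.56, 4.55 and 6.30 CPM (log2 fold change 3.35, SE 0.344, adjusted p = 3.36e-06). Mfge8 rose from 10.3, 10.9 and 13.3 CPM to 35.6, 48.1 and 55.4 CPM (log2 fold change 2.04, SE 0.154, adjusted p = 2.08e-07). Axl rose from 7.96, 8.27 and 7.37 CPM (log2 fold change 1.87, SE 0.105, adjusted p = 1.82e-08). These 3 genes were higher in every migrated library than in any steady-state library, and library ranges did not overlap for 6 of the 8, against 57.5% of all genes.

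Stab1 (log2 fold change 2.39, SE 0.396, adjusted p = 0.000226) and Mertk (1.76, SE 0.508, adjusted p = 0.0109) were also called higher in joint migrated cells, though from 0.51 to 1.06 and 0.222 to 0.556 CPM at steady state, and Mertk overlapped between the groups. Tyro3 passed the p limit at a fold under the threshold (0.67, SE 0.178, adjusted p = 0.00685). Both ligands gave no call, with Gas6 at 0.76 (SE 0.673, adjusted p = 0.368) and Pros1 at -0.19 (SE 0.243, adjusted p = 0.532). Macrophage markers summed to 72.0 to 110.5 CPM at steady state, about the level of migrated cells, with 1 of 5 called lower and none higher. DC markers summed to 479 to 785 CPM at steady state, with 4 of 5 called higher in migrated cells, and B cell markers to 2456 to 2804 CPM against 406 to 548 CPM, with 3 of 3 called lower. Neutrophil markers summed to 378 to 758 CPM at steady state against 31.0 to 79.6 CPM, with 5 of 5 called lower in migrated cells. The part of these cell types in the results was not tested.

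At the skin, 6 of 8 genes were called higher and none lower in migrated cells than at steady state, against 36.5% of all genes tested (21.5% higher, 15.0% lower), and 7 of 8 did not overlap, against 71.2% of all genes. Stab1 had 0.247, 0.162 and 0.183 CPM at steady state and 4.93, 3.30 and 5.14 CPM in migrated cells (log2 fold change 4.50, SE 0.478, adjusted p = 2.65e-06). Timd4 (2.61, SE 0.324, adjusted p = 1.1e-05), Axl (2.44, SE 0.108, adjusted p = 1.47e-09) and Mfge8 (2.02, SE 0.154, adjusted p = 1.16e-07) rose as well. Mertk rose by 3.47 (SE 0.607, adjusted p = 0.000233) from 5, 6 and 5 counts per steady-state library. Gas6 had 4, 3 and 0 counts at steady state and 26, 5 and 14 in migrated cells, and its log2 fold change of 3.57 (SE 0.889, adjusted p = 0.00322) rests on these few reads and lost its call in a fit of all 18 libraries (3.52, adjusted p = 0.0715). The summed counts of 45 and 7, scaled to library size, gave a 12.1-fold ratio with an exact 95% counting interval of 5.41 to 31.8. Pros1 (0.98, SE 0.26, adjusted p = 0.00488) lay just under the fold limit and passed it without skin migrated replicate 2 (1.19) or skin-draining steady-state replicate 3 (1.08). Tyro3 was not called (0.41, SE 0.181, adjusted p = 0.0632). Here the macrophage markers also rose, from 14.6 to 19.2 CPM to 82.3 to 141 CPM, with 5 of 5 called higher, as were 5 of 5 DC markers. B cell markers fell from 1566 to 2089 CPM to 65.1 to 121 CPM, with 3 of 3 called lower. The part of these cell types in the results was not tested.

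**Figure D5:**
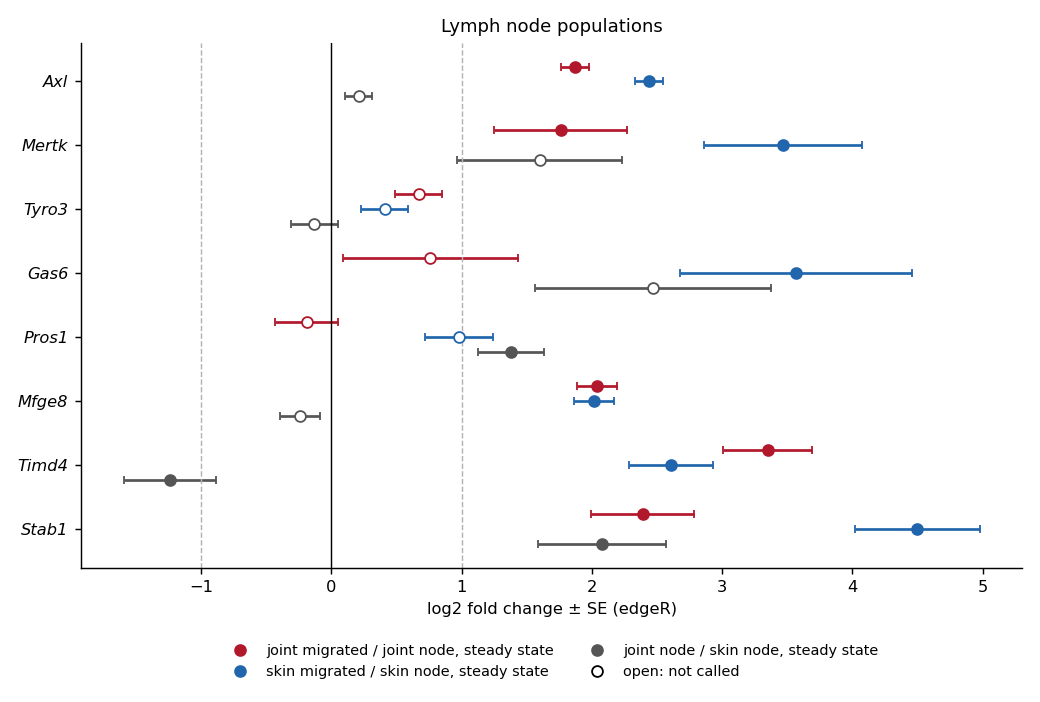
Log2 fold change ± SE of migrated cells against steady-state LN cells for the joint (red) and the skin (blue), and of joint-draining against skin-draining LNs at steady state (grey); filled points were called, and dashed lines mark a log2 fold change of 1 in size. Axl, Mfge8 and Timd4 are higher in inflammation at both sites, and Stab1 has 4.50 at the skin and 2.39 at the joint.

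Between the steady-state LNs, 3 of 8 genes were called, against 3.89% of all genes tested (3.23% higher in the joint-draining LNs, 0.655% lower), and 6 of 8 did not overlap, against 31.1% of all genes. Pros1 (log2 fold change 1.38, SE 0.254, adjusted p = 0.00427) and Stab1 (2.08, SE 0.493, adjusted p = 0.0201) were higher in the joint-draining LNs and Timd4 (-1.24, SE 0.352, adjusted p = 0.0493) was lower. Pros1 kept its call without any single library, and none of the 3 calls held in a fit of all 18 libraries (adjusted p 0.0775 to 0.131). Stab1 lost it in 5 of 6 such fits (adjusted p 0.0502 to 0.1) and Timd4 in 4 of 6 (0.0882 to 0.242). Gas6 (2.47, SE 0.903, adjusted p = 0.122) and Mertk (1.60, SE 0.633, adjusted p = 0.155) missed the threshold with groups that did not overlap, at no more than 25 counts per library for either gene. Gas6 was called with no filter (2.49, adjusted p = 0.0358) and by DESeq2 (2.57, adjusted p = 0.0453). Axl (0.21, SE 0.106, adjusted p = 0.284), Tyro3 (-0.13, SE 0.179, adjusted p = 0.729) and Mfge8 (-0.24, SE 0.152, adjusted p = 0.398) gave no call. Macrophage markers (72.0 to 110.5 CPM against 14.6 to 19.2 CPM, 5 of 5 called higher) and neutrophil markers (378 to 758 CPM against 9.41 to 16.0 CPM, 5 of 5 called higher) were also higher in the joint-draining steady-state libraries. Their part in the results was not tested, and tissue and the difference in titles cannot be told apart. Whether the inflamed-to-steady difference itself differed by site was tested as an interaction (joint minus skin), with Stab1 as the only call of the 8 (-2.10, SE 0.617, adjusted p = 0.0466) against 6.11% of all genes tested (2.33% higher, 3.78% lower). Axl passed the p limit at a smaller size (-0.58, SE 0.146, adjusted p = 0.0258). Pros1 (-1.17, SE 0.356, adjusted p = 0.0536) missed it and was called with no filter (-1.17, adjusted p = 0.034) and by DESeq2 (-1.17, adjusted p = 0.0119). Gas6 (-2.80, SE 1.14, adjusted p = 0.132), Mertk (-1.71, adjusted p = 0.188), Timd4 (0.74, adjusted p = 0.324), Tyro3 (0.26, adjusted p = 0.54) and Mfge8 (0.02, adjusted p = 0.97) were not called.

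A wider list of 63 clearance genes, 59 of them tested in each fit, was chosen by role to set the 8 in their pathway. On migration from the joint, 7 were called higher and 33 lower, with a median log2 fold change of -1.24, and in skin 2 and 33, with a median of -1.29. Of all genes tested, 16.0% were higher and 18.4% lower in joint, and 15.7% and 19.7% in skin, with medians of 0.02 and 0.01. Other phosphatidylserine and clearance receptors gave 3 higher and 12 lower of 17 tested in joint, and 0 and 14 in skin. Cd300lf, an inhibitory phosphatidylserine receptor of myeloid cells, fell from 268 ± 40.2 to 7.83 ± 3.70 CPM in joint (log2 fold change -5.09, SE 0.324, adjusted p = 4.71e-07) and was lower in skin (-7.27, SE 0.361, adjusted p = 7.14e-08). The bridging molecules and opsonins, among them the complement C1q chains that opsonise dying cells, had 5 of 7 lower at each site and none higher, with C1qb at -7.23 in joint (SE 0.791, adjusted p = 1.65e-05) and -5.07 in skin (SE 0.718, adjusted p = 0.000112).

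Enzymes and effectors around the TAM axis went in both directions. Ggcx, the carboxylase that activates Gas6 and protein S, gave -0.12 in joint (SE 0.175, adjusted p = 0.578) and 0.07 in skin (SE 0.181, adjusted p = 0.752). Adam17, a protease that sheds Axl and Mertk, fell by 1.52 (SE 0.101, adjusted p = 6.32e-07) and 1.26 (SE 0.101, adjusted p = 1.82e-06) on the log2 scale, and Adam10 gave -0.88 (SE 0.157, adjusted p = 0.000612) in joint and -0.08 (SE 0.157, adjusted p = 0.674) in skin. Of the 6 engulfment genes tested, Crk (-1.20, adjusted p = 2.44e-05) and Dock1 (-1.25, adjusted p = 0.0248) were called lower in joint and none was called in skin, against 18.4% and 19.7% of all genes called lower. Elmo2 (-1.0, adjusted p = 2.43e-05) and Rac1 (-0.63, adjusted p = 0.000284) in joint, and Crk (-0.88, adjusted p = 0.00023), Elmo2 (-0.65, adjusted p = 0.000512) and Rac1 (-0.59, adjusted p = 0.000427) in skin, passed the p limit at folds under the threshold. Abca1, the cholesterol exporter that phagocytes use to unload lipid from engulfed cells, fell from 681 ± 46.6 to 53.8 ± 4.997 CPM in joint (-3.66, SE 0.246, adjusted p = 6.82e-07) and from 564 ± 209 to 21.9 ± 2.58 CPM in skin (-4.69, SE 0.26, adjusted p = 1.32e-07), and was the 1 gene of the list that differed between joint and skin migrated cells (1.30, SE 0.228, adjusted p = 0.0187). Socs3, induced by TAM signalling among many cytokine pathways, fell at both sites (-2.31, SE 0.166, adjusted p = 9.92e-07, and -2.24, SE 0.166, adjusted p = 1.12e-06), whereas Socs1 rose in joint (1.03, SE 0.115, adjusted p = 1.91e-05) and fell in skin (-1.48, SE 0.116, adjusted p = 1.58e-06). Rubcn, needed for the digestion of engulfed cargo by LC3-associated phagocytosis, rose at both (1.47, SE 0.195, adjusted p = 6.81e-05, and 1.76, SE 0.198, adjusted p = 2.12e-05), and Panx1, a channel that releases find-me nucleotides, rose in joint (1.31, SE 0.144, adjusted p = 1.79e-05) and stood at 0.89 in skin (SE 0.145, adjusted p = 0.000297), under the fold limit. Slc2a1, the glucose transporter GLUT1, fell by 2.27 in joint (SE 0.163, adjusted p = 9.92e-07) and by 4.12 in skin (SE 0.177, adjusted p = 2.95e-08), and Cx3cl1, a find-me chemokine, rose at both (2.54, SE 0.424, adjusted p = 0.000363, and 1.15, SE 0.405, adjusted p = 0.0295).

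Of the wider list, 18 genes were higher and 5 lower in joint migrated cells than in the steady-state LN, and 24 and 4 at the skin, where 16.9% and 7.31% of all genes tested were called at the joint and 21.5% and 15.0% at the skin. Havcr2 (TIM-3) rose at both, by 3.08 (SE 0.17, adjusted p = 1.51e-08) and 4.96 (SE 0.191, adjusted p = 7.06e-10) on the log2 scale, as did Cx3cl1 (6.65, SE 0.291, adjusted p = 4.7e-09, and 6.09, SE 0.274, adjusted p = 1.5e-09) and the phosphatidylserine-binding annexin Anxa5 (1.29, SE 0.0977, adjusted p = 2.1e-07, and 1.74, SE 0.0991, adjusted p = 9.5e-09). Abca1 was lower than at steady state (-1.66, SE 0.143, adjusted p = 7.19e-07, and -2.94, SE 0.153, adjusted p = 4.41e-09), as was the sialoglycoprotein Cd24a (-1.31, SE 0.201, adjusted p = 0.000123, and -1.43, SE 0.204, adjusted p = 4.08e-05). Cd300lf was lower at the joint (-1.35, SE 0.277, adjusted p = 0.00122) and stood at 0.68 at the skin (SE 0.292, adjusted p = 0.0534), and the scavenger receptor Cd36 was lower at the skin (-1.56, SE 0.253, adjusted p = 0.000119) and at -0.59 at the joint (SE 0.226, adjusted p = 0.0441), under the fold limit. Between nonmigrated groups, 4 genes were higher in joint, with Stab2 (2.24, adjusted p = 0.00882), Itgb5 (1.65, adjusted p = 0.0115) and Dock1 (1.64, adjusted p = 0.0166) leading, and 8 lower, led by Socs1 (-2.39, adjusted p = 3.16e-06), Slc2a1 (-1.49, adjusted p = 0.00015) and Havcr2 (-1.24, adjusted p = 0.000939), against 5.45% higher and 8.86% lower of all genes. Between the steady-state LNs, 11 were higher on the joint side and none lower, against 3.23% and 0.655% of all genes, led by Socs3 (1.49, adjusted p = 3.9e-06), Itgb5 (3.21, adjusted p = 7.3e-05) and the LPS co-receptor Cd14 (5.24, adjusted p = 0.000144), where the neutrophil and macrophage markers above were higher too. The interactions gave 7 higher and none lower of the 59 for migration, and 2 and 13 for inflammation, against 3.96% and 2.17%, and 2.33% and 3.78%, of all genes.

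Across the 18 libraries, the genes whose log2(CPM + 1) was most like each of the 8 were found among 14381 protein-coding genes. The libraries fall into 6 groups that share composition, so these correlations describe group patterns and carry no test. Mertk was most like Ms4a7 (Pearson r = 0.995), Camk1 (0.994) and Tbxas1 (0.994), Stab1 like Ctsb, Scamp1 and Sash1 (0.995 to 0.996), Gas6 like Cbr2 (0.991), Camk1 (0.990) and C1ra (0.989), and Pros1 like Pltp (0.990), Daglb and Glul. The genes most like Mertk, Stab1, Gas6 and Pros1 include several that are well known from macrophages, such as Ms4a7 and the lysosomal protease Ctsb. Axl was most like Reep3 (0.99), Ltbp3 (0.987) and Lrp5 (0.984), and Tyro3 like Sh2d1a (0.991) and Fyn (0.989), both signalling genes of T cells, and Ehd3 (0.976). Mfge8 was most like Il12b (0.987), which encodes the p40 chain of IL-12 made by activated DCs, Sema3f (0.984) and Lrp8 (0.976). Timd4 had the weakest likeness of the 8, with Ccdc122 (0.957), Trim6 (0.957) and Hspb6 (0.954).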

How the data were processed

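RNA-Seq was performed on 18 samples of sorted CD45+ cells, 3 in each of 6 groups, with paired reads of 100 bases. The authors checked reads with FastQC, trimmed them with Trim Galore, aligned them to mm10 with TopHat2 using Ensembl release 87 gene models, and counted them per gene with HTSeq at its default settings. Versions of these tools are not given in the sources used here. The deposited values are raw counts, 1 column per sample, and 5 rows that name no gene (11.3% to 15.1% of each library's total) were left out. The authors' own comparisons, made with DESeq2, were not used. Positions, exon lengths and symbols came from GENCODE release M21 (49326 of 49585 IDs matched) and promoters from RefSeq, in which all 8 genes were found.

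Counts were tested here with edgeR 4.0.16 and limma 3.58.1 in R 4.3.3 (quasi-likelihood F test, TMM, filterByExpr with a minimum count of 10, Benjamini-Hochberg adjustment over all genes of a comparison). The 12 inflamed libraries and the 12 LN libraries were fitted separately, with group as the only factor, so inflamed LN libraries enter both fits and comparisons that share a group are not independent. The SE was obtained as the size of the log2 fold change over the root of its F value. CPM were scaled by TMM over all 18 libraries. The threshold is that of the study's methods. Alternatives were an adjusted p under 0.001, DESeq2 1.42.0 size factors or its Wald test, other filters on low counts, a replicate block, other sets of libraries and leaving out each library. On simulated counts, 79.6% of genes changed by 1.5 and 91.9% of those changed by 3 (log2) were called in the right direction for joint migration.

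Libraries of 1 group differed by far more than counting error (chi-square per degree of freedom 14.7 to 117), so none was counted as a duplicate. A count of 3 equals 0.0685 to 0.156 CPM before TMM, and the interval given for Gas6 covers counting error only. Each library of the inflamed groups was a pool of mice, so the spread there is between pools. The paper does not describe pools for the steady-state libraries. Text names every one of the 8 genes in every comparison, from the wider list the 3 called genes of smallest adjusted p per direction in each 2-group comparison, with further members of its role groups named as examples after their values were seen, and the 3 genes most like each member. The 8 genes and all lists were chosen with earlier results of these data known. Of the macrophage marker list, 1 gene is not reported here and was left out of its sums and counts. Tables and figures were made with Python 3.11.15, pandas 2.3.3, scipy 1.17.1 and matplotlib 3.10.9.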

Additional observations from a re-analysis of the deposited data

Results flagged for a closer look

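Axl was flagged because its difference between migrated and nonmigrated cells was not the same at the 2 sites. The interaction (joint minus skin) was -1.98 on the log2 scale (edgeR quasi-likelihood test, adjusted p = 0.000667), with Axl lower in all 3 migrated than in all 3 nonmigrated libraries at each site. Joint against skin, Axl differed by 1.62 in nonmigrated and by -0.36 in migrated cells. Cell type markers called in the same interaction are given above, and their part in the Axl value was not tested.

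Stab1 was flagged because its difference between inflamed and steady-state LN cells was larger at the skin than at the joint, with an interaction of -2.10 (adjusted p = 0.0466). The 5 macrophage markers had a median interaction of -3.26 in the same fit, with 5 of 5 called lower, and their part in the Stab1 value was not tested. The Stab1 call was lost in 13 of 19 alternatives, in which the value ran from -2.50 to -1.77.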

How the results depend on the processing

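Of 1076 log2 fold changes of the 8 genes under alternatives, 996 kept their side of the threshold, 60 lost their call and 20 gained one. None that was called changed sign. Of the 996, 15 changed sign, all of them called in neither fit. DESeq2 gave no adjusted p for Gas6 in the inflamed comparisons, and its member counts leave that gene out. The causes of the changes below were not tested.

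At an adjusted p under 0.001, genes called were 3586 (joint migration), 3508 (skin migration), 511 (joint against skin nonmigrated), 0 (joint against skin migrated), 20 (migration by site), 2714 (joint migrated against steady state), 246 (steady-state LNs) and 152 (inflammation by site), and members called were 1 between nonmigrated groups, 0 between steady-state LNs and 0 for inflammation by site. Between migrated groups, 327 genes were called with no filter, 407 with all 18 libraries fitted together and 465 with DESeq2. For migration by site, 1664 were called with all 18 libraries and 1729 with DESeq2, and for inflammation by site 666 with all 18. Fitting only the groups compared left 2 members between nonmigrated groups. DESeq2 called 2 members for migration by site and 2 for inflammation by site, no filter 2 for the latter, and the stricter filter and the fit of all 18 libraries 0 each, the latter also giving 0 between steady-state LNs.

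Leaving out each library in turn gave 5217 to 5658 genes and 6 to 7 members (joint migration), 5801 to 6185 and 5 to 6 (skin migration), 1745 to 3720 and 2 to 7 (nonmigrated groups), 58 to 171 and 0 (migrated groups) and 582 to 2610 and 1 to 5 (migration by site). The highest counts for nonmigrated groups and migration by site came without skin nonmigrated replicate 3. For joint and skin against steady state the ranges were 3777 to 4234 with 5 members and 6129 to 6340 with 6 to 7, for the steady-state LNs 465 to 603 with 1 to 2, and for inflammation by site 695 to 1240 with 0 to 1.

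The sources used here do not state whether same-numbered migrated and nonmigrated libraries of a site came from the same mice. In the inflamed fit, deviations of same-numbered libraries correlated at 0.014 to 0.184 for joint and 0.052 to 0.129 for skin, all positive. There, 4 of 6 joint and 6 of 6 skin libraries correlated best with their own number. The LN fit sets inflamed against steady-state mice. Its correlations were -0.165 to -0.113 for joint and -0.049 to -0.022 for skin, with 0 best matches. The main fits use no pairing. With the replicate block, 5747, 5834, 2405, 138 and 826 genes were called in the 5 comparisons of the inflamed fit and 3836, 5953, 612 and 773 in the 4 of the LN fit. The block gave 2 members for migration by site (Pros1 added, -1.88, adjusted p = 0.0379) and 0 for inflammation by site (Stab1 lost, 0.0798). Between nonmigrated groups it added Mertk (1.44, 0.0152) and lost Tyro3 (-1.06, 0.0637), and between steady-state LNs it lost Timd4 (-1.25, 0.124). Depth limits Gas6, Mertk and Stab1 in the LNs, where some libraries held fewer than 10 counts.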
